A study of Rattus norvegicus with 6 samples.

Results

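Circular RNAs (circRNAs) whose host genes encode adhesion molecules, receptor phosphatases and axon guidance proteins were examined in rat spinal cord. Hosts were chosen by gene symbol: circRNAs not classed as antisense whose host symbol begins with Cdh, Pcdh, Cntn, Ncam, Nrcam, Itga, Itgb, Ptpr, Sema, Plxn, Unc5, Epha or Ephb, with Epha5 left out. This gave 59 hosts of 4443 and 169 circRNAs of the 10281 that have a host in sense, out of 11061 circRNAs in all. The Cntn prefix also takes the contactin-associated Cntnap genes. The Itgb prefix takes Itgb3bp, which encodes a centromere protein rather than an integrin subunit and had 2 reads. All 59 symbols were found in the RefSeq table for the rat assembly GRCr8, 58 as current symbols and 1 (Plxna4a) as a synonym, and all 59 hosts lie there on the chromosome that the deposited table gives.

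RNA came from spinal cord of Wistar rats aged 8 weeks. There were 3 libraries from rats with a transected cord (SCI) and 3 from rats that had only the vertebral arch opened (sham). The sources differ on the injury: the design text describes a complete transection, and the title as written an incomplete one. The sources used here give neither the time after surgery nor the cord level. Separate rats are not named for the libraries, so p-values reflect library-to-library spread, which may be technical.

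A circRNA forms when a downstream splice donor joins an upstream acceptor, and its measure here is the number of reads across that back-splice junction. The host families sit at the cell surface or act on it. Cadherins and protocadherins bind their own kind on the neighbouring cell, contactins and NCAM-type proteins are immunoglobulin-domain adhesion molecules of axons and myelin, and integrins hold cells to the extracellular matrix. Receptor-type tyrosine phosphatases of the LAR group bind matrix proteoglycans and organise synapses. Semaphorins act through plexins, netrins through Unc5 and Dcc, and ephrins through Eph receptors to steer axons. Several of these pathways are studied after cord injury because they can limit axon regrowth. Back-splice reads report on the circular product only and not on the mRNA or protein of the host.

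Back-splice reads totalled 21255, 20847 and 19603 in SCI libraries and 11631, 9805 and 12722 in sham libraries. A read was thus a larger part of a sham library, and a host at 0 reads may lie up to the level that 3 reads give, 1.41 to 1.53 reads per 10000 in SCI libraries and 2.36 to 3.06 in sham libraries. A circRNA enters the table with 2 reads in any library, so the deeper SCI libraries bring in more of them. Counts were less even between sham libraries: chi-square per degree of freedom was 2.23 to 2.42 for pairs of SCI libraries and 3.29 to 5.07 for pairs of sham libraries, with the higher values in pairs that include sham replicate 3. Among marker hosts, neuronal genes had 1.88 to 5.28 reads per 10000 in SCI and 2.58 to 7.07 in sham (5 of 8 markers with reads). Astrocyte markers had reads for 4 of 6 (0.480 to 3.06 and 0 to 6.12 per 10000) and oligodendrocyte precursor markers for 3 of 5 (0 to 1.53 and 3.14 to 6.12). Endothelial and pericyte markers had reads for 1 of 6, Flt1 (0.941 to 2.88 and 1.0199 to 7.86), with no row for the endothelial cadherin gene Cdh5 in the table used here. None of the 7 microglia and macrophage markers, which include Itgam and Ptprc, and none of 4 fibroblast markers had a circRNA here. Schwann cell, muscle and red blood cell lists had 1 host each with reads, at most 2.35 per 10000 in any library. In bulk cord RNA, fewer cells of a type and fewer circRNAs per cell cannot be told apart.

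The 59 hosts took about 1 read in 100 of each library. SCI libraries held 170, 185 and 184 of their reads, against 144, 78 and 125 in sham. Of all reads in the library this was 0.800%, 0.887% and 0.939% in SCI and 1.24%, 0.796% and 0.983% in sham, with means of 0.875% ± 0.0702 and 1.01% ± 0.222 (SD, n = 3 each). The groups overlapped, and sham replicate 1 was the highest library. Reads came from 35, 35 and 34 hosts in the SCI libraries and from 30, 21 and 19 in the sham libraries. After thinning each library to 9805 reads by exact expectation, 27.98, 29.96 and 29.4 hosts were left in SCI, against 29.6, 21 and 18.5 in sham. Sham replicate 1 was then within the SCI range, while the other 2 sham libraries stayed below it. Without thinning, 59.3%, 59.3% and 57.6% of the 59 hosts had reads in the SCI libraries and 50.8%, 35.6% and 32.2% in the sham libraries. For all hosts the shares were 56.9%, 54.5% and 54.9% in SCI and 36.8%, 39.5% and 32.2% in sham. All hosts were not thinned.

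Reads of these hosts were spread thinly. Of the 59 hosts, 33 had 8 or more reads in the 6 libraries together and 26 had 2 to 7, of which 12 were seen in 1 library only. Hosts with 7 or fewer reads were 44.1% of the 59, against 56.3% of all hosts. Those seen in 1 library only were 23.7%, against 37.2%. The median was 8 reads per host, against 6 over all hosts, and the 4 most-read hosts, Cntn1, Ncam2, Cdh7 and Ptprd, held 31.5% of the reads. With so few reads, 6 of the 59 hosts passed the low-count filter of the host test, as did 647 of all 4443 hosts. None of the 6 was called between SCI and sham. Over all 647 hosts tested, 2 were called at adjusted p under 0.05 in edgeR's quasi-likelihood test, a share of 0.309%, with 1 higher (0.155%) and 1 lower (0.155%). Of the 6, 0 had an unadjusted p under 0.05, against 42 of 647 (6.49%). DESeq2 and limma-voom also called 0 of the 6. Their log2 fold changes had a median of -0.24, with 2 of 6 positive, against a median of 0.14 over all 647, and these 6, the most-read ones, do not stand for all 59.

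Contactins were the most-read immunoglobulin-type adhesion hosts. Cntn1 encodes a GPI-anchored adhesion molecule of axons and of the paranodal junction with myelin. It had 13, 22 and 17 SCI reads against 14, 7 and 10 sham reads, or 8.45 ± 2.23 and 9.01 ± 2.64 reads per 10000 (SD, n = 3 each). The groups overlapped throughout. SCI over sham gave a log2 fold change of -0.07 (edgeR, SE 0.50, adjusted p = 0.986), and without the low-count filter the value was 0.27. Cntn3, which encodes a related contactin, had 6, 5 and 4 SCI reads against 12, 0 and 0 sham reads. All of its sham reads came from sham replicate 1, where it stood above every SCI library. Cntn5, another contactin gene, had 3, 8 and 4 reads against 5, 2 and 0, with overlap, and a ratio to library totals of 1.19 (exact 95% interval 0.455 to 3.44). Cntn6 and Cntn4 had 7 and 2 reads, all of them in SCI libraries.

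The contactin-associated Cntnap5 genes, 3 paralogs on chromosome 13 that encode neurexin-like membrane proteins, had more reads in SCI in sum but with overlap. Cntnap5c had 14, 2 and 5 SCI reads against 4, 0 and 2 sham reads (ratio 1.94, 95% interval 0.756 to 5.87). Cntnap5b had 4, 6 and 6 against 0, 2 and 0 (ratio 4.43, 95% interval 1.04 to 39.7), where sham replicate 2 at 2.04 reads per 10000 stood above the lowest SCI library at 1.88. Cntnap5a had 2, 6 and 0 against 3, 0 and 0. These intervals, like all others given for ratios of reads, cover counting error only. No molecular identifiers are described, and the spread between libraries is not in them. Paralogs of this kind can share reads, so the split among them is uncertain.

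Ncam2, which encodes a homophilic adhesion molecule of the NCAM family, was the second most-read host. It had 15, 11 and 17 SCI reads against 9, 18 and 4 sham reads, or 7.002 ± 1.70 and 9.75 ± 7.80 per 10000 (SD, n = 3 each). Sham replicate 1 lay within the SCI range, replicate 2 above it and replicate 3 below it. The log2 fold change of -0.41 (edgeR, SE 0.62, adjusted p = 0.986) turned to 0.55 without sham replicate 2. Nrcam, which encodes an L1-family molecule of nodes of Ranvier, had 7, 5 and 2 reads against 5, 3 and 0, with overlap (ratio 0.969, 95% interval 0.379 to 2.67). The Ncam family in the table used here is Ncam2 alone.

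Among hosts of the Cdh prefix, the type II cadherin genes had most of the reads. Cdh7 had 15, 19 and 12 SCI reads against 5, 5 and 14 sham reads, or 7.43 ± 1.53 and 6.80 ± 3.66 per 10000 (SD, n = 3 each). Sham replicate 3 was the highest library and the other 2 sham libraries were the lowest. Its log2 fold change was 0.14 (edgeR, SE 0.58, adjusted p = 0.986), equal to the median over all hosts. Cdh18 had 6, 7 and 9 reads against 4, 1 and 7, with overlap, and a log2 fold change of 0.11 (edgeR, SE 0.89, adjusted p = 0.986) that was -0.0136 without TMM scaling.

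Cdh10, another type II cadherin gene, had 8, 9 and 4 SCI reads against 0, 3 and 0 sham reads (ratio 3.87, 95% interval 1.16 to 20.3). Sham replicate 2, at 3.06 per 10000, lay above SCI replicate 3, at 2.04, so the groups overlapped, and the interval covers counting error only. Cdh10 did not pass the filter, and with no filter its log2 fold change was 2.09 (edgeR, SE 1.39, adjusted p = 0.599). Cdh12 had 0, 0 and 14 reads against 0, 1 and 0, so a lone SCI library carried it. Cdh19, which is expressed in Schwann cells and other glia, had 0, 7 and 4 reads against 2, 0 and 0. Cdh11, known from mesenchymal cells, had 1, 0 and 0 reads against 4, 0 and 5, and here 2 sham libraries were high while the third was at 0 like 2 of the SCI libraries.

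Cdh23 and Pcdh15 encode the partners of the tip link of hair cells. Cdh23 had 1, 7 and 3 SCI reads against 4, 0 and 14 sham reads, or 1.79 ± 1.46 and 4.81 ± 5.63 per 10000 (SD, n = 3 each). Sham held both the highest and the lowest library, and the log2 fold change of -1.41 (edgeR, SE 1.14, adjusted p = 0.938) was 0.0657 without sham replicate 3. Pcdh15 had 7, 1 and 4 reads against 0, 0 and 4, with overlap. Among the other protocadherins, Pcdh17 had reads in all 6 libraries, 7, 4 and 4 SCI reads against 7, 3 and 3 sham reads, or 2.42 ± 0.761 and 3.81 ± 1.94 per 10000 (SD, n = 3 each). Pcdh19, an X-linked gene of homophilic adhesion, had 4, 0 and 1 reads against 0, 7 and 0. Pcdh9 had 0 reads in each SCI library and 7, 0 and 2 in sham, so sham replicate 2 was at 0 like the SCI libraries.

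Integrin hosts had few reads. Itgb8, a subunit of the integrin that releases active TGF-beta, had 0, 0 and 2 SCI reads against 0, 0 and 6 sham reads. Itgb5 had 0, 1 and 0 against 2, 3 and 1, and Itgav, the alpha subunit that pairs with either, had 0 in SCI and 5, 0 and 0 in sham. Counted by scaled level, each SCI library lay below each sham library for Itgb5, from 7 reads. The 3 Itgb hosts together had 5 reads in SCI and 12 in sham, and Itgb3bp contributed 2 of the 5.

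Receptor phosphatases were led by Ptprd, a LAR-group receptor of synapse formation. Ptprd had 8, 8 and 7 SCI reads against 13, 1 and 15 sham reads, or 3.72 ± 0.138 and 8.00 ± 6.05 per 10000 (SD, n = 3 each). Sham replicates 1 and 3 stood at 11.2 and 11.8 per 10000, above every SCI library, and sham replicate 2 at 1.0199, below every one. The log2 fold change of -1.08 (SE 0.76) had an adjusted p of 0.938 by edgeR and was 1.83 with sham replicate 2 as the only sham library. Ptprr, which binds and dephosphorylates ERK and p38 kinases, was the 1 host of the 27 with 10 or more reads whose groups did not overlap. Of all 1634 hosts with as many reads, 3.79% were lower and 9.12% higher without overlap. Ptprr had 3, 0 and 2 SCI reads against 2, 3 and 9 sham reads, or 0.811 ± 0.729 and 3.95 ± 2.79 per 10000 (SD, n = 3 each; ratio 0.198, 95% interval 0.0557 to 0.581). The lowest sham library, at 1.72 per 10000, lay just above the highest SCI library, at 1.41, and 9 of the 14 sham reads came from sham replicate 3. Ptprr did not pass the low-count filter, and its interval covers counting error only.

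Of the other phosphatases, Ptprg, which binds contactins, had 5, 1 and 8 SCI reads against 4, 0 and 0 sham reads. Ptpra, whose product activates Src-family kinases, had 3, 0 and 1 against 3, 3 and 0. Ptprt, a homophilic adhesion receptor gene, had 5, 2 and 1 SCI reads against none in sham. Summed over 13 hosts, the Ptpr family took 0.132%, 0.106% and 0.117% of reads in SCI and 0.232%, 0.133% and 0.204% in sham. The highest SCI and the lowest sham library were almost level. Without Ptprd the difference in means was -0.0288 percentage points, against -0.0715 with it. Ptprs and Ptprz1, which encode receptors tied to chondroitin sulphate proteoglycans, had 3 and 4 reads in all.

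Several semaphorin, plexin and netrin receptor genes were seen in 1 library only. So were 23.7% of the hosts in the group and 37.2% of all hosts. The semaphorin genes Sema7a, Sema4d, Sema5a and Sema3c had 8, 6, 6 and 3 reads. All reads of Sema7a and of Sema4d came from sham replicate 3, those of Sema3c from SCI replicate 3 and those of Sema5a from SCI replicates 1 and 2. Among plexins, the receptors of semaphorins, Plxna4a had 1, 0 and 12 SCI reads against 2, 2 and 0 sham reads. Plxnc1, which encodes the receptor of Sema7a, had all of its 11 reads in sham replicate 3, the library that also held those of Sema7a, and Plxna1 had 2 reads. Both Plxnc1 and Sema7a had 0 reads in the other 5 libraries, so each difference rests on a single library. Of all 356 hosts with 10 or more reads and over 50% of scaled reads in 1 library, it was sham replicate 3 for 137. Of the netrin receptor genes, Unc5c had 1, 0 and 0 reads against 10, 0 and 0, and Unc5d had 4, 3 and 1 against none in sham. Unc5b had 2 reads.

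Eph receptor genes, whose products read ephrins on neighbouring cells, did not pass the low-count filter of the host test, apart from Epha5. The 2 Epha hosts took 0.0619% ± 0.0143 of SCI reads against 0.0353% ± 0.0402 of sham reads (SD, n = 3 each), with overlap. Epha7 had 5, 6 and 8 SCI reads against 1, 5 and 2 sham reads, or 3.10 ± 0.886 and 2.51 ± 2.27 per 10000 (SD, n = 3 each), with sham replicate 2 the highest library. Epha6 had 8, 4 and 7 against 0, 3 and 0, or 3.08 ± 1.01 and 1.0199 ± 1.77 (SD, n = 3 each; ratio 3.51, 95% interval 1.03 to 18.5). For Epha6, sham replicate 2 lay within the SCI range, and the interval covers counting error only. Ephb1, a receptor gene for B-type ephrins, had 2, 4 and 2 SCI reads against none in sham, and Ephb2 had 0, 0 and 2 against 2, 0 and 0. Epha5, outside the group by the rule, had 15, 18 and 15 SCI reads against 14, 7 and 1 sham reads, with a log2 fold change of 0.27 (edgeR, SE 0.70, adjusted p = 0.986).

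**Figure D1:**
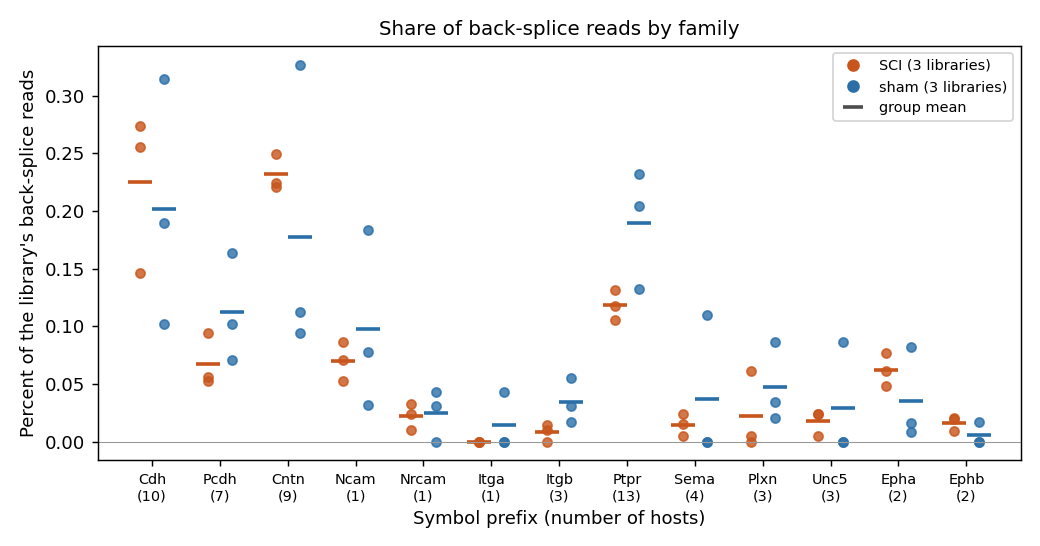
Percent of each library's back-splice reads held by each symbol prefix (x axis, number of hosts in brackets), with a point per library, SCI left of sham, and a bar at each group mean. The 3 SCI points of Cntn lie within 0.221% to 0.249% while the sham points run from 0.0943% to 0.327%.

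Cadherin hosts took 0.225% ± 0.0690 of SCI reads against 0.202% ± 0.107 of sham reads, protocadherin hosts 0.0677% ± 0.0230 and 0.112% ± 0.0471, and contactin and Cntnap hosts 0.232% ± 0.0155 and 0.178% ± 0.129 (SD, n = 3 each). With exonic circRNAs alone the protocadherin difference, -0.0444 percentage points with all classes, was 0.0178. Groups overlapped in 11 of the 13 prefixes and did not in Ptpr and Itgb, both lower in SCI. These family shares are descriptions and were given no p. For a single value, 3 against 3 libraries cannot give an exact permutation p below 0.10.

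Counted over hosts, 0 of the 27 with 10 or more reads had all SCI libraries above all sham ones, where 9.12% of all 1634 such hosts did. For lower in every SCI library the count was 1 of 27, Ptprr, against 3.79% of all such hosts. Over all 59 hosts, 4 (Cntn6, Ephb1, Ptprt and Unc5d, each with 7 or 8 reads and 0 in sham) were higher without overlap and 2 (Ptprr and Itgb5) were lower, against 5.92% and 1.53% of all 4443 hosts. Every SCI value of those 4 higher hosts lay below the level that 3 reads give in a sham library. The lowest sham value of Itgb5 lay below the level that 3 reads give in an SCI library. The mean scaled level was above sham in 31 of 59 hosts (52.5%), close to the 56.0% over all hosts. In all, 16 hosts had reads in SCI alone, none with more than 8 reads, and 9 in sham alone, none with more than 11, while 34 had reads in both. These were 27.1% of the 59 hosts in SCI alone and 15.3% in sham alone, against 34.7% and 15.4% of all hosts.

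**Figure D2:**
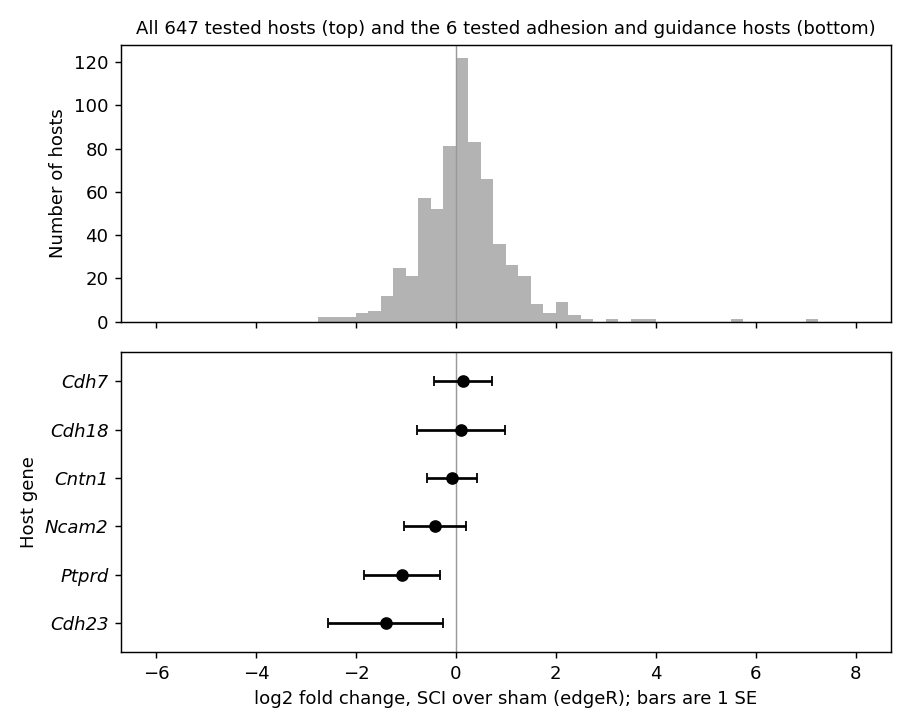
Log2 fold changes of SCI over sham from edgeR, as a histogram of all 647 tested hosts (top) and as points with bars of 1 SE for the 6 tested adhesion and guidance hosts (bottom). The 6 points lie between -1.41 and 0.14, within the range of the histogram.

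A single library often carried a host. After scaling by library totals, 8 of the 27 hosts with 10 or more reads had over 50% of their signal in 1 library: Plxnc1 (100%), Unc5c (94.8%), Cdh12 (87.5%), Pcdh19 (74.9%), Plxna4a (59.1%), Cntn3 (58.7%), Cdh23 (55.6%) and Cdh11 (50.1%). Over all 1634 hosts with as many reads the share was 21.8%, and 24.8% of the 1435 hosts with 10 to 83 reads, the range of these hosts, against 29.6% here. The high library was sham replicate 3 for 3 of the 8, sham replicate 1 for 2, SCI replicate 3 for 2 and sham replicate 2 for 1. Over all 356 such hosts it was sham replicate 3 for 137 and sham replicate 1 for 91. For Cdh12, Pcdh19, Plxna4a and Cdh23 the reads in that library came from each of the 2 to 4 junctions of the host, not from 1. The part of uneven sham counts in these values was not tested.

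**Figure D3:**
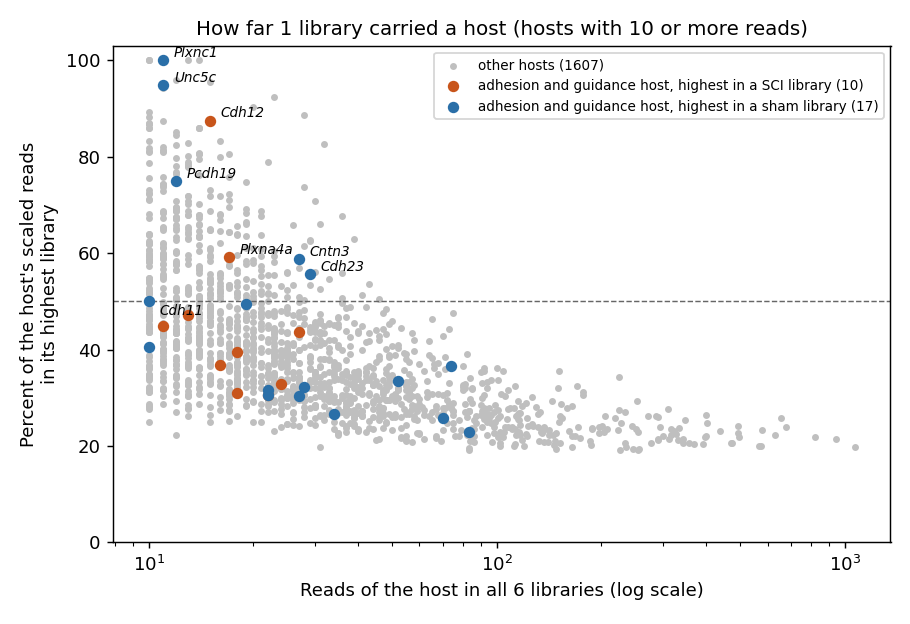
Percent of a host's scaled reads in its highest library (y axis) against its reads in all 6 libraries (x axis, log scale) for hosts with 10 or more reads, other hosts in grey and adhesion and guidance hosts coloured by the group of the highest library. The 8 named hosts lie above the dashed line at 50%, and hosts with more reads sit lower.

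The genomic make-up of the circles was then compared with all circRNAs that have a host in sense, as a description. Of the 169 circRNAs, 122 (72.2%) were exonic, 36 (21.3%) overlapped the host in sense and 11 (6.51%) were intronic, against 67.7%, 27.6% and 4.76% overall. A circBase identifier was given for 72 (42.6%, against 41.7%). The circles spanned more of the genome, with a median of 23.01 kb (quartiles 8.34 and 47.3) against 10.97 kb (3.39 and 26.2), and 40 of 169 (23.7%) spanned over 50 kb, against 9.62%. The longest span in the table was 99.9 kb, and no longer loop is listed. Spliced lengths were closer: for exonic circRNAs with a predicted length under the span, the median was 704 bases here and 582 overall. Hosts had a mean of 2.86 circRNAs against 2.31, and 33.9% had 1 circRNA against 52.2%. Reads per circRNA had a median of 3 in either set, and 95 of 169 (56.2%) were seen in 1 library only, against 56.7%.

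Within hosts, junctions often shared an end. In the 39 hosts with 2 or more circRNAs, 83 of 149 circRNAs (55.7%) had the same start or end as another circRNA of the host, against 60.5% overall. In Cntn1 all 11 circRNAs, all exonic and within 99.1 kb, shared an end with another, and 4 started at position 133141821 of chromosome 7. Of these 4, the circle ending at 133157203 was the most-read Cntn1 circRNA, with 3, 1 and 1 SCI reads against 4, 0 and 10 sham reads. The circle that ends at 133159088, the next end in the table, had 3, 1 and 9 SCI reads against none in sham. The second of these circles drew most of its reads from SCI replicate 3, and the first from sham replicate 3. All 11 circles were seen in SCI, where libraries were deeper, and 5 of them in sham. Over the group, 50.3% of circRNAs were seen in SCI only and 20.7% in sham only. Of all circRNAs with a host in sense these shares were 48.8% and 21.3%.

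Ptprd had the most circRNAs, 13 within 321 kb of chromosome 5 (minus strand), of which 12 shared an end with another. A circle from 97202876 to 97206176 had 0 reads in SCI and 3, 1 and 7 in sham, while one from the same coordinate to 97286585 had 2, 1 and 3 SCI reads against none in sham. Of the 13, 9 were seen in SCI, 6 in sham and 2 in both groups. In Ncam2 (chromosome 11, plus strand) 4 of 8 circles began at 24122740. Its most-read circle, 24149922 to 24179936, had 9, 3 and 7 SCI reads against 1, 6 and 1 sham reads (log2 fold change 0.28, edgeR SE 1.08, adjusted p = 0.989). In Cdh7 (chromosome 13, plus strand) the circle from 36278977 to 36301658 held 61.4% of the reads, 9, 14 and 8 SCI reads against 3, 5 and 4 sham reads, with a log2 fold change of 0.44 (edgeR, SE 0.78, adjusted p = 0.971).

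The third circRNA that passed the filter was that of Cdh23 (chromosome 20, 31656765 to 31673083, minus strand, sense overlapping), with 1, 7 and 3 SCI reads against 4, 0 and 9 sham reads and a log2 fold change of -1.04 (edgeR, SE 1.17, adjusted p = 0.971). None of the 3 circRNAs was called, where 1 of 484 tested (0.207%) was, and 0 of the 3 had an unadjusted p under 0.05, against 6.2% of the 484. DESeq2 and limma-voom also called 0 of the 3. No host of the group had 2 circRNAs past the filter, so a changed share of a junction within its host could be tested for none of them. Over all hosts 0 of 173 junctions (0%) were called by edgeR's diffSpliceDGE, with 2 at an unadjusted p under 0.05. With no filter, the smallest p in the group belonged to the Cntn1 circle that ends at 133159088 and the Ptprd circle from 97202876 to 97206176, with log2 changes of share of 3.21 and -3.04 (adjusted p = 0.607 each by edgeR's diffSpliceDGE).

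**Figure D4:**
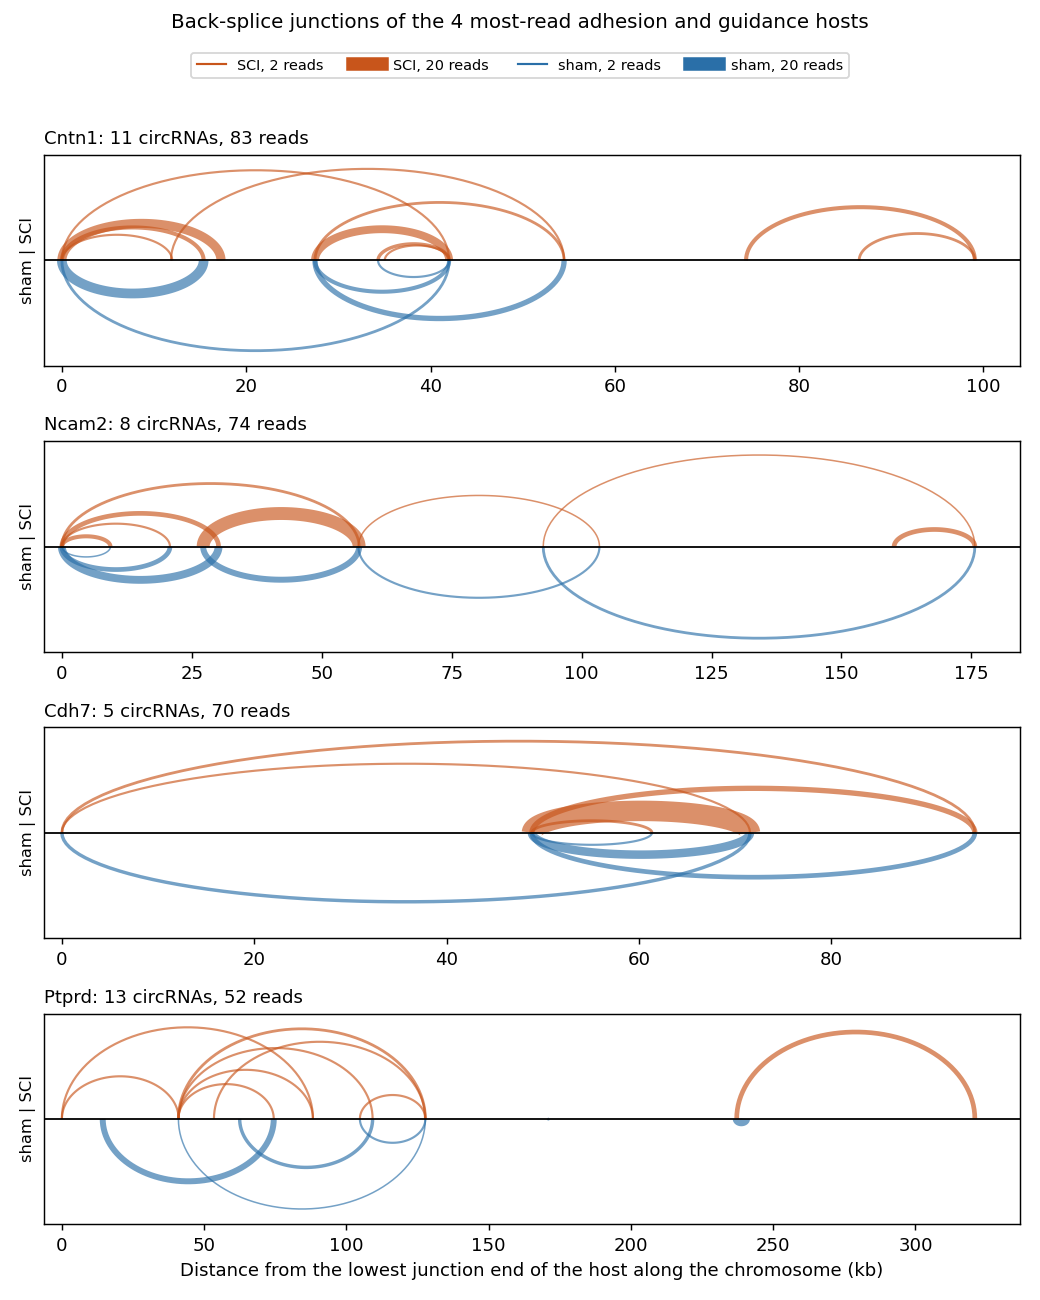
Back-splice junctions of Cntn1, Ncam2, Cdh7 and Ptprd as arcs between their 2 ends, with distance from the lowest junction end of the host on the x axis (kb), SCI above and sham below the line and arc width growing with the summed reads of the group. Cdh7 is led by the same arc in either group, and each of the hosts, Cdh7 included, shows arcs drawn on 1 side only.

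Circles spanning under 2 kb were 19 of the 169 (11.2%), against 17.8% of all circRNAs with a host in sense, and some of them were the most-read of their host. The most-read circles of Epha7 (chromosome 5, 48288264 to 48289508, plus strand, exonic) and Epha6 (chromosome 11, 45248236 to 45248899, plus strand, exonic) held 77.8% and 77.3% of the reads of their hosts. The Epha6 circle spans 664 bases, and so does the most-read circle of Epha5 (chromosome 14, 25501634 to 25502297, plus strand, exonic, 36 reads), 2 of the 4 exonic circRNAs of that span in the table. Ephb1 has a circle of 682 bases with 2 reads. The most-read circle of Cdh10 (chromosome 2, 89315284 to 89317724, plus strand) and a circle of Cdh7 have the same predicted length of 583 bases. Cdh7 and Cdh11 share 1025 bases, Cntnap5a and Cntnap5c share 684, and Cntn3 and Cntn4 share 849. In all, 9 predicted lengths were found in more than 1 host, of which 4 joined hosts of 1 family and 5 joined hosts of different families, so equal length alone does not single out paralogs. These lengths were compared after the values were seen.

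The most-read circles of the further hosts were mostly exonic, with positions as in the deposited table. Exonic ones were those of Cdh18 (chromosome 2, 94316675 to 94359485), Cntn3 (chromosome 4, 199280267 to 199334396), Cntn5 (chromosome 8, 7853315 to 7931680), Cntnap5c (chromosome 13, 12368449 to 12407693), Cntnap5b (chromosome 13, 27428930 to 27468078) and Cntnap5a (chromosome 13, 19740005 to 19781180). So were those of Cdh12 (chromosome 2, 92188466 to 92249738), Cdh19 (chromosome 13, 37516563 to 37531564), Cdh11 (chromosome 19, 2495307 to 2514282), Pcdh15 (chromosome 20, 17292335 to 17389386) and Pcdh19 (chromosome X, 104273261 to 104329086). Exonic ones also came from Ptprg (chromosome 15, 17233354 to 17247409), Ptpra (chromosome 3, 129575886 to 129576243), Plxnc1 (chromosome 7, 35931202 to 35933804), Ephb1 (chromosome 8, 109825329 to 109853211), Unc5d (chromosome 16, 67153043 to 67161973) and Itgb8 (chromosome 6, 156019813 to 156032849). Sense overlapping ones were those of Pcdh17 (chromosome 15, 71269199 to 71270018), Nrcam (chromosome 6, 74434386 to 74443443), Plxna4a (chromosome 4, 59551364 to 59552633), Unc5c (chromosome 2, 265878270 to 265895192), Sema7a (chromosome 8, 62520522 to 62521820) and, tied at 3 reads with an exonic circle of the same host, Ptprt (chromosome 3, 163827786 to 163851526). Those of Ptprr (chromosome 7, 59089929 to 59093592) and Pcdh9 (chromosome 15, 80516132 to 80520647) were intronic. In Cntnap5b a sense overlapping circle tied with the one given, at 5 reads each, and in Pcdh15 another exonic circle did, at 4 reads each. The Ptprr circle held 11 of the 19 reads of its host, 2, 0 and 1 SCI reads against 0, 1 and 7 sham reads.

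Partners of these families were read from lists outside the group. Of 30 guidance ligands and co-receptors, 11 had reads and 1 was tested, the Slit receptor gene Robo1, with 38, 18 and 38 SCI reads against 0, 4 and 6 sham reads (log2 fold change 2.38, edgeR SE 0.71, adjusted p = 0.550). Dcc, the attractive netrin receptor, had 9 reads in SCI and 22 in sham with overlap. Of 35 other adhesion molecules, 18 had reads and 2 were tested: the giant cadherin gene Fat3 (0.48, SE 0.32) and Dscam (0.13, SE 0.38), with adjusted p = 0.938 and 0.986 by edgeR. Of 22 cytoplasmic partners of cadherins and integrins, 11 had reads and 1 was tested, the focal adhesion kinase gene Ptk2 (0.29, edgeR SE 0.49, adjusted p = 0.986). Of 42 cytoplasmic partners of guidance receptors and phosphatases, 21 had reads and 2 were tested: Yes1, a Src-family kinase gene (-0.49, SE 0.78), and Dpysl2, the semaphorin mediator CRMP2 (-1.97, SE 1.01), with adjusted p = 0.986 and 0.767 by edgeR. Thus 0 of the 6 partners tested passed in either direction, and 1, Robo1, had an unadjusted p under 0.05 in edgeR. By scaled level the groups did not overlap for Robo1 and Fat3, higher in SCI, and for Dpysl2, lower in SCI, and they overlapped for the other 3. Of all hosts with 10 or more reads, 9.12% were higher and 3.79% lower without overlap. Among listed partners with as many reads that did not pass the filter, Srgap1 was higher in SCI without overlap and the rest overlapped.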

How the data were processed

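Raw counts of reads across each back-splice junction, for 6 libraries, are what the authors deposited, per the file headers. A second block holds the authors' log2 CPM values (edgeR, per the file headers), which were not used here. A predicted circRNA length is given as well, in another column of the authors' table. Per the labels' protocols, RNA was extracted with Trizol and libraries were made with a TruSeq RNA kit. Bowtie 0.12.2 and mm8, a mouse build, are named in the submitters' processing notes. Not given in the sources used here are the circRNA caller, any removal of linear RNA and the build of the coordinates, which are printed as in the table, counted from 1. No sequence was read by coordinates.

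Counts were summed per host without antisense circRNAs (0 of 112 had a host of these prefixes). Tests used edgeR 4.0.16 in R 4.3.3 (glmQLFit, glmQLFTest) with TMM, filterByExpr at a minimum count of 5 and minimum total of 15. Group was the sole term, and p-values were adjusted by Benjamini-Hochberg over all features tested. SE was derived as log2 fold change over the square root of F. Alternatives used DESeq2 1.42.0 and limma 3.58.1 (voom). Ratios of reads to library totals have exact 95% conditional binomial intervals (SciPy 1.17.1) on reads summed per group, without the spread between libraries. Scripts were tested on simulated counts. CircRNAs without a host symbol (7.78% of reads) are counted in library totals but in no host.

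Members, lists and tests were chosen with earlier results of these data known. Described in full are hosts past the filter, the 25 next most-read (ties kept) and the most-read of each prefix; partner hosts are those of the lists past the filter. The summed level of 1 cell type marker list is not reported here.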

Additional observations from a re-analysis of the deposited data

How the results depend on the processing

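No adhesion or guidance host and none of their circRNAs passed under any of the 15 alternatives for hosts, or of the 13 for circRNAs that left one to test. No junction share of any host was called in 12 alternatives. Of these, only no filter (149 junctions) and leaving out sham replicate 3 (2 junctions) left any junction of the group to test. The numbers tested changed: 3 of these hosts passed the stricter filter, 17 were tested without sham replicate 2 and 59 with no filter. Of the 17, 0 were called and 4 had an unadjusted p under 0.05 in edgeR. In that setting 1 of all 969 hosts tested was called and 131 had an unadjusted p under 0.05. Over all hosts, the 2 calls became 1 with DESeq2 size factors, 1 with the replicate block and 1 with antisense circRNAs included. They became 3 with no TMM, 3 with limma-voom, 3 with the stricter filter, 4 with DESeq2 and 7 with no filter. The alternative with sham replicate 2 as the only sham library was added after the data were seen. It assumes that the lone library varies like the SCI libraries. Leaving out each library gave 0 to 8. Over all circRNAs the 1 call became 2 with no TMM, with DESeq2, with limma-voom, with the stricter filter and with the replicate block, 0 with no filter, and 3 with sham replicate 2 as the only sham library; leaving out each library gave 0 to 3.

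Of 116 log2 fold changes of the 6 hosts and 3 circRNAs under alternatives, 13 changed sign. Cdh18 was -0.0136 with no TMM. Cntn1 was 0.27 with no filter, where the median of the 647 hosts moved by 0.34, and 0.27 with sham replicate 2 as the only sham library. That setting also gave 1.83 for Ptprd and -0.91 for the Ncam2 circRNA. Leaving out 1 library gave ranges of -0.12 to 0.71 for Cdh18, -1.77 to 0.0657 for Cdh23, -0.00739 to 0.74 for Cdh7, -0.22 to 0.29 for Cntn1, -0.79 to 0.55 for Ncam2, -0.0265 to 1.88 for the Ncam2 circRNA and -1.47 to 0.0466 for the Cdh23 circRNA. Those of Ptprd (-1.41 to -0.66) and the Cdh7 circRNA (0.22 to 0.85) kept their sign. The cause was not tested. Some of these ranges lack settings in which the feature did not pass the filter. Cdh23 and its circRNA were not tested when any SCI library was left out. Cdh18 was not tested without SCI replicate 3, nor the Ncam2 circRNA without SCI replicate 1. The SCI minus sham difference of the hosts' summed share, -0.130 percentage points, lay between -0.235 and 0.0798. Of 139 family differences under alternatives, 5 moved by more than the spread between libraries, in percentage points: Pcdh with exonic circRNAs only (0.0178, against -0.0444), Ephb without its most-read host (-0.00233, against 0.0106), and, with sham replicate 2 as the only sham library, Ncam (-0.114, against -0.0274), Ptpr (-0.0144, against -0.0715) and Epha (-0.0197, against 0.0266). Deviations of same-numbered SCI and sham libraries from their group means had r = -0.0113, 0.0609 and 0.0329 across tested hosts. The other pairs lay between -0.0935 and 0.0614. With so few reads per host, such values cannot show whether same-numbered libraries share a batch. The replicate block, which moved the calls as given above, is not read as pairing. Depth limits these results: the 59 hosts had 78 to 185 reads per library, and 53 of them did not pass the filter.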
